A study of Homo sapiens with 3 samples.

Results

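Peaks of RNA bound by HaloTag fusions of RPL22 and of RPL22L1 were examined in 28 genes for proteins of the small (40S) ribosomal subunit, out of 20050 protein-coding genes. The genes were taken from a given list of symbols: RPSA, RPS2, RPS3, RPS3A, RPS4X, RPS6, RPS7, RPS9, RPS10, RPS12, RPS13, RPS14, RPS15, RPS15A, RPS16, RPS18, RPS19, RPS20, RPS21, RPS23, RPS24, RPS25, RPS26, RPS27, RPS27A, RPS28, RPS29 and FAU. A peak was given to a gene when its summit, the highest point of the peak, lay within the RefSeq bounds of the gene. Summits inside annotated snoRNA genes were kept apart from the rest. The cells were HCT116, an established human colorectal carcinoma line, grown without a stated treatment. The series held 3 samples, 1 library each, with HaloTag only, RPL22-HaloTag or RPL22L1-HaloTag as the genotype. RPL22 belongs to the large (60S) subunit, and RPL22L1 is a closely related protein that can take its place. GoldCLIP ties the tagged protein covalently to beads and reads out the RNA crosslinked to it. The labels do not say whether a line was 1 clone, how strongly a fusion was produced, or whether the endogenous proteins were still present.

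The small subunit binds messenger RNA, scans it for the start codon and holds the decoding centre, while the large subunit joins amino acids. Messenger RNAs for ribosomal proteins typically begin with a C followed by a stretch of pyrimidines, the 5′ terminal oligopyrimidine tract, through which their translation is regulated by growth signals. Many of these genes carry snoRNAs in their introns, and most have processed copies, intronless insertions of their messenger RNA elsewhere in the genome.

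The RPL22-HaloTag list held 154000 peaks and the RPL22L1-HaloTag list 254413, and the number of reads behind them is unknown. With 1 library per genotype there is no replicate check and no test between groups. Peaks of the cells with HaloTag alone were not analysed here, and no value has a background from them. Values describe these libraries, and intervals are exact Clopper-Pearson 95% intervals that cover counting error only. Scores are the authors' values per peak, and peaks are given by rank within their own list. Of 6 genes fixed as markers of colon epithelium, EPCAM and KRT18 among them, 6 had a summit in each list. Of 6 markers of other cell types 2 and 3 did. Peaks are not expression levels.

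The first bases of the transcripts are shown first because RPL22 summits gathered there. A summit lay within the first 50 bases of the gene, counted from the annotated start as base 1, in 11 of the 25 genes whose strand was known. Strand was taken from the RefSeq promoter table, and RPS2, RPS15A and RPS20 were without an entry. The first 30 bases of these 11 genes, from RefSeq in GRCh38.p14, are printed 5′ to 3′ on the strand of the gene. Capitals mark the unbroken run of C and T that starts at base 1.
RPS6, chr9:19380207-19380236, minus strand: CTCTTTTCCgtggcgcctcggaggcgttca
RPS14, chr5:150449710-150449739, minus strand: CTCTCTTTCCggtgtggagtctggagacga
RPS15, chr19:1438396-1438425, plus strand: Caaagcgatctcttctgaggatccggcaag
RPS19, chr19:41860255-41860284, plus strand: CCCTTTCCCCTggctggcagcgcggaggcc
RPS21, chr20:62387103-62387132, plus strand: CCTTTCTCTCTCgcgcgcggtgtggtggca
RPS23, chr5:82278325-82278354, minus strand: CTCTTTCgctcaggcccgtggcgccgacag
RPS24, chr10:78033863-78033892, plus strand: CTCTTTTCCTCCTTggctgtctgaagatag
RPS25, chr11:119018314-119018343, minus strand: CTTTTTgtccgacatcttgacgaggctgcg
RPS27, chr1:153990762-153990791, plus strand: CCTTTCCggcggtgacgacctacgcacacg
RPS28, chr19:8321496-8321525, plus strand: actcctctccgccagaccgccgccgcgccg
FAU, chr11:65122105-65122134, minus strand: CTCTTTCTCgactccatcttcgcggtagct
RPS15 has a run of 1 base from its annotated start and RPS28 begins with an A. The other 9 have capitals over 6 to 14 bases. With the bases before the start included, a run of at least 5 C or T covered or touched the start in 19 of 25 of the small subunit genes (76.0%). Over 13819 protein-coding genes with a promoter sequence at their outer start, 18.2% had such a run. RPS9, RPS13 and RPS18 start with the same kind of run and held no summit in either list.
RPS9, chr19:54200858-54200887, plus strand: CTCTTTCTCagtgaccgggtggtttgctta
RPS13, chr11:17077638-17077667, minus strand: CCTTTCgttgcctgatcgccgccatcatgg
RPS18, chr6:33272075-33272104, plus strand: CTCTCTTCCacaggaggcctacacgccgcc

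In the RPL22 list 11 of 25 small subunit genes, or 44.0% (24.4 to 65.1%), had a summit in these first 50 bases. Among 15842 protein-coding genes with a known strand the share was 3.16%, and among those with any summit it was 4.49%. The window of 50 bases was chosen after the positions were seen, and the count depends on it. In the first 25 bases 5 of 25 genes had a summit in each list, or 20.0% (6.83 to 40.7%), against 1.31% (RPL22) and 0.877% (RPL22L1) of protein-coding genes. In the first 50 bases the RPL22L1 list had a summit in 5 of 25 genes, or 20.0% (6.83 to 40.7%), against 2.06% of all protein-coding genes and 2.87% of those with any RPL22L1 summit. These 5 genes, RPS6, RPS14, RPS15, RPS19 and RPS21, were also among the 11 of the RPL22 list, and their peaks overlapped between the lists. The same 25 genes were counted in both lists, so the overlap of the 2 intervals does not decide whether 11 and 5 genes differ. A difference between the lists was not tested, and with 25 bases they had the same number. In the RPL22 list none of the 25 genes had a summit in bases 51 to 100, 101 to 150 or 151 to 200, where a count of 0 allows up to 13.7%. In the RPL22L1 list 1 to 2 genes had one in each of these windows. Across all protein-coding genes the RPL22 share was 3.25% in bases 51 to 100, which is close to that of the first 50 bases.

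**Figure D1:**
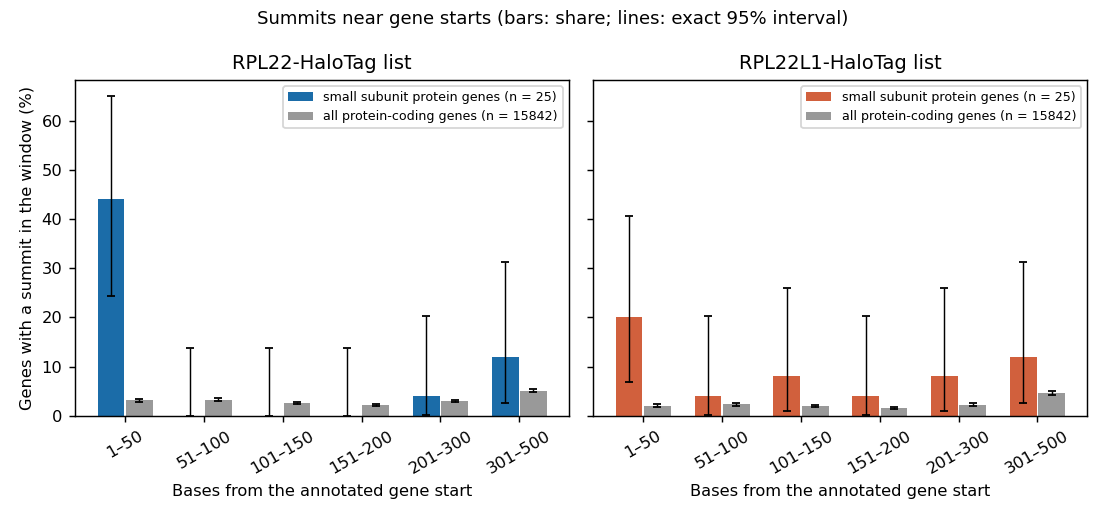
Share of genes with a peak summit in windows counted from the annotated start, for the 25 small subunit genes with a known strand (coloured) and all 15842 protein-coding genes with one (grey). Bars are shares in percent and lines are exact 95% intervals; in the RPL22 list 44.0% of the small subunit genes have a summit in the first 50 bases and 0 in each of the next 3 windows.

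Of the 11 start peaks of the RPL22 list 9 were in the top 5% of its ranks. The share for start peaks of all protein-coding genes is not given here. RPS6, the ribosomal protein that S6 kinases phosphorylate, had a single RPL22 peak in its 4522 bases. It lay at chr9:19380190-19380233 with the summit at base 24 and a score of 5091, which put it at rank 258 or in the top 0.168% of peaks. The RPL22L1 list had its highest RPS6 peak at the same place, at chr9:19380168-19380232 with the summit at base 25 and rank 760. RPS24, mutated in some families with Diamond-Blackfan anaemia, also had 1 RPL22 peak in all of its 22944 bases. Its summit was at base 28, with a score of 1743 and rank 451. No RPL22L1 peak lay over it, and the nearest to the start in that list had its summit at base 1734.

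RPS19, the gene most often mutated in Diamond-Blackfan anaemia, had start peaks in both lists, with summits at bases 12 and 20 and ranks 588 and 1182. The RPL22 peak spanned chr19:41860205-41860290 and so began before the annotated start. RPS14, whose loss underlies the anaemia of the 5q deletion syndrome, had summits at bases 26 and 24, with ranks 800 and 7973 in the RPL22 and RPL22L1 lists. RPS23, a protein of the decoding centre, had an RPL22 start peak at base 29 with rank 705 and none in the RPL22L1 list. RPS25, needed for initiation at several viral internal entry sites, had one at base 43 with rank 915, again in the RPL22 list. These 6 genes, RPS6, RPS14, RPS19, RPS23, RPS24 and RPS25, held start summits in the top 1% of the RPL22 list.

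The remaining start peaks ranked lower. RPS27, a zinc finger protein, had its summit at base 23 with rank 2193, in a peak of 118 bases. RPS15 had summits at base 11 in the RPL22 list (rank 4008) and base 22 in the RPL22L1 list (rank 221538, a flat peak). A flat peak is 30 bases wide with the summit at its centre, the form most weak peaks take in these lists. RPS21 had summits at bases 26 and 20 with ranks 5486 and 24775. FAU, which encodes a ubiquitin-like protein fused to RPS30, had an RPL22 summit at base 35 with rank 49812. RPS28 had a flat RPL22 peak with the summit at base 18 and rank 66647. Positions of the 11 RPL22 start summits ran from base 11 to base 43 with a median of 26.

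Strong peaks of all protein-coding genes gave another background. Of 866 summits in the top 1% of the RPL22 list that lay in protein-coding genes of known strand, 17 were in the first 50 bases, or 1.96%. In the small subunit genes it was 6 of 13 (46.2%, 19.2 to 74.9%), so 6 of those 17 summits belonged to them. In the RPL22L1 list the numbers were 9 of 1607, or 0.560%, and 2 of 12 (16.7%, 2.09 to 48.4%). In protein-coding genes no longer than RPS29, the longest small subunit gene, the shares of top 1% summits were 3.90% for RPL22 and 1.67% for RPL22L1. In 8 of the 19 stranded genes with any RPL22 summit the best-ranked peak was the start peak (42.1%, 20.3 to 66.5%), against 1.01% of all such protein-coding genes and 1.99% of those no longer than RPS29. That held for 3 of 20 such genes in the RPL22L1 list (15%, 3.21 to 37.9%), against 0.526% and 1.03%. The start summits had a median rank at 0.594% of the RPL22 list, and the other summits of these genes one at 17.1%.

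Among other genes the share with a start summit was higher with a C or T run at the start than without one in both lists. The intervals overlap, which does not decide whether the shares differ, and a difference was not tested. Outside the ribosomal protein genes, 3.77% (3.05 to 4.60%) of 2467 genes with such a run had an RPL22 summit in the first 50 bases, and 3.13% (2.82 to 3.47%) of 11292 genes without one. For RPL22L1 summits the corresponding shares were 2.80% (2.18 to 3.53%) and 2.02% (1.77 to 2.30%). Of the 19 small subunit genes with a run 9 had an RPL22 start summit, and of the 6 without a run 2 did, RPS15 and RPS28. These counts depend on the rule that a run must cover or touch the annotated start. RPS28 counts as without one because of the A at base 1, which is followed directly by a stretch of C and T. RPS26, without a start summit, has a G and an A before such a stretch.

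Summits were then counted over whole genes. Outside snoRNA genes, 20 of 28 genes (71.4%, 51.3 to 86.8%) held an RPL22 summit and 22 of 28 (78.6%, 59.0 to 91.7%) an RPL22L1 summit. Over all protein-coding genes the shares were 68.2% and 69.7%, and over the 10749 genes no longer than RPS29 they were 53.5% and 55.0%. Both intervals of the small subunit genes contain the shares of all protein-coding genes. The RPL22 interval also contains the share of the shorter genes, and the RPL22L1 interval lies above it. All 20 genes with an RPL22 summit also had an RPL22L1 summit. The matching share over all protein-coding genes is not given here, so this is not read as a trait of these genes. RPS3A, whose protein sits on the platform of the subunit, and RPS20, a protein of the head, had RPL22L1 summits only, 1 and 2 of them.

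Together the genes held 60 RPL22 and 155 RPL22L1 summits. Their median number per kb of gene was 0.318 and 1.17, against 0.0981 and 0.127 over all protein-coding genes, which are longer at the median (24093 against 4768 bases). Pooled over the genes there were 0.316 RPL22 and 0.815 RPL22L1 summits per kb, against 0.222 and 0.344 in protein-coding genes no longer than RPS29, whose median length was 9328 bases. Large subunit protein genes, with a median length of 5034 bases, held 0.289 and 0.928 per kb, so such densities were not particular to the small subunit genes. In the small subunit genes the RPL22L1 number was higher in 20, equal in 8 and lower in 0, and that list is the longer one. Of the 8 equal genes 6 had no summit in either list. This split is not given for all protein-coding genes, so it is not read as a trait of these genes. The most summits were in RPS19 (9 RPL22 and 17 RPL22L1), RPS10 (7 and 13), RPS29 (6 and 18), RPS7 (6 and 7) and RPS4X (4 and 12). RPS10 shares its bounds with the read-through gene RPS10-NUDT3, and peaks of the 2 cannot be told apart without strand and exons. Flat peaks made up 21.7% of the RPL22 summits and 41.9% of the RPL22L1 summits in small subunit genes, below the 64.9% and 77.9% of the whole lists.

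**Figure D2:**
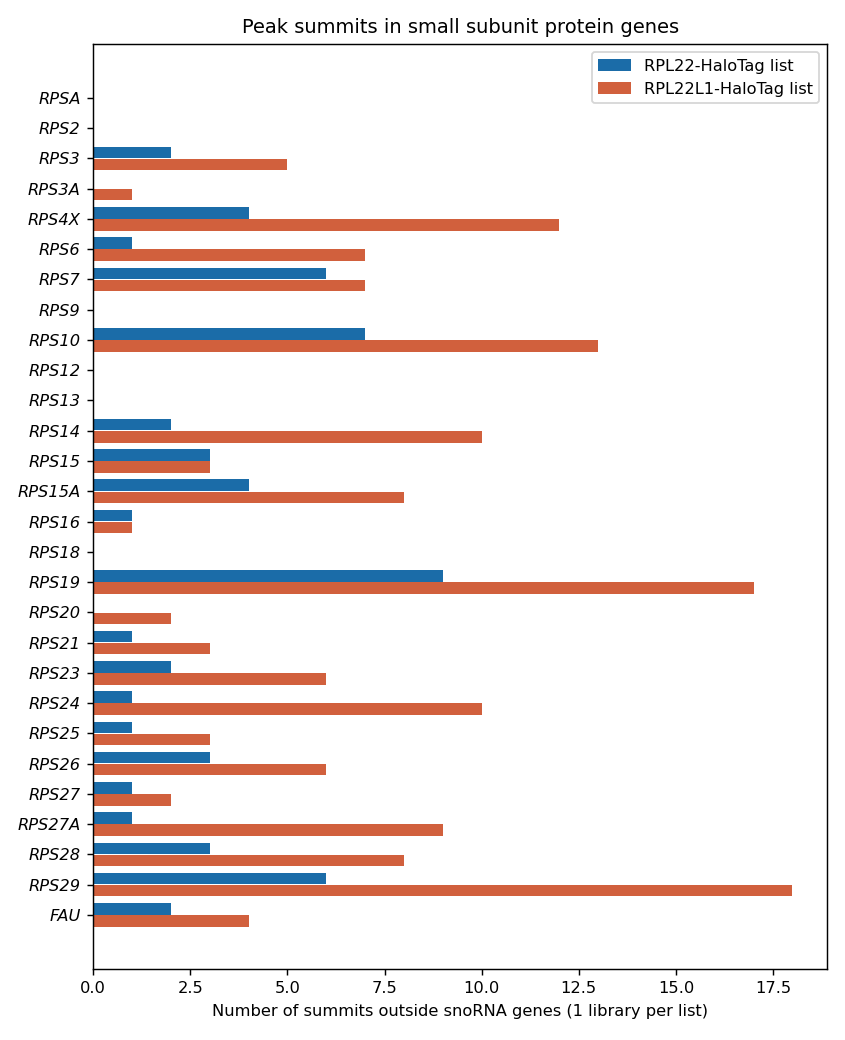
Number of summits outside snoRNA genes in each of the 28 genes, with 1 bar per list. RPS19 and RPS29 have the longest bars, and RPSA, RPS2, RPS9, RPS12, RPS13 and RPS18 have 0 in both lists. No gene has fewer summits in the RPL22L1 list, which is the longer one, than in the RPL22 list.

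In lists of equal size, with the RPL22L1 list reduced to its 154000 highest scores, RPL22L1 summits were the more frequent in 15 genes and the less frequent in 4. The same split over all protein-coding genes is not given here. The log2 ratio of RPL22L1 to RPL22 summits, with 1 added to each number, was taken over genes with a summit in either list. Its median was 0.50 over 22 small subunit genes and 0 over 14632 protein-coding genes. It was above 1 in 4 of the 22, where 6.85% of the protein-coding genes were, and below -1 in 0, where 12.2% were. With genes without a summit included, the numbers were 4 and 0 of 28, against 1002 and 1792 of 20050 protein-coding genes. No interval was computed for these small counts, so no shift from the background is read from them. RPS24 had the largest ratio, 2.17, with 1 RPL22 and 8 RPL22L1 summits. RPS27A, made as a fusion with ubiquitin, followed with 1 and 5 summits (1.58), RPS6 with 1 and 4 (1.32) and RPS4X with 4 and 10 (1.14). The lowest ratios were -1 for RPS15 (3 and 1 summits) and RPS16 (1 and 0), then -0.49 for RPS7 (6 and 4). With numbers this small, a single summit moves most of these ratios.

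Peaks at the same place were found in 15 of the genes. RPS29 is among them only through a pair inside RN7SL1, another gene within its bounds, and that pair is counted in the shares below. The share of all protein-coding genes with such a pair is not given here, and the backgrounds below are per peak. Of the 60 RPL22 peaks 24 overlapped an RPL22L1 peak by at least 1 base, or 40% (27.6 to 53.5%), against 19.0% of peaks in all protein-coding genes. In the other direction 25 of the 155 RPL22L1 peaks had an RPL22 peak over them (16.1%, 10.7 to 22.9%), against 11.4%. Among peaks in the top 5% of their list, 15 of 22 in the RPL22 list and 13 of 27 in the RPL22L1 list overlapped (68.2%, 45.1 to 86.1%, and 48.1%, 28.7 to 68.1%). In all protein-coding genes 66.7% and 44.4% of the peaks in the top 5% did, so strong peaks of small subunit genes overlapped about as often as strong peaks elsewhere. In 3 pairs the summits were at the same base, and the RN7SL1 pair is among them.

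The best-placed shared peaks away from the start were in RPS15A, RPS4X and RPS29. RPS15A, a protein of the body of the subunit, had overlapping peaks at chr16:18788990-18789019 in the RPL22 list (rank 526) and chr16:18788989-18789019 in the RPL22L1 list (rank 494), with summits 5 bases apart. RPS4X, encoded on the X chromosome, had peaks at chrX:72275659-72275717 (rank 1477) and chrX:72275604-72275690 (rank 1320) with the same summit base, 1580 bases from the start. The RPS29 pair at chr14:49586837-49586878 (rank 241) and chr14:49586846-49586877 (rank 389) lay inside RN7SL1, the gene for the RNA of the signal recognition particle. That gene lies within the RefSeq bounds of RPS29, so the highest rank of RPS29 in both lists was a peak of RN7SL1. RPS23 had its best RPL22 peak at base 523 (rank 547), over an RPL22L1 peak of rank 10635.

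**Figure D3:**
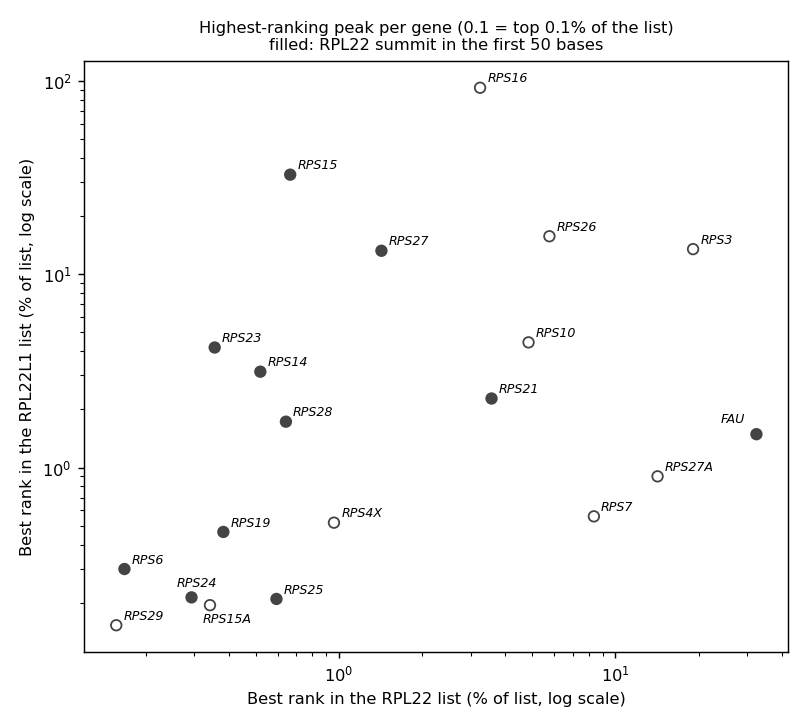
Rank of the highest peak outside snoRNA genes in each list, in percent of the list on log axes, for the 20 genes with a summit in both lists. Filled points have an RPL22 summit in the first 50 bases; RPS6, RPS24, RPS15A, RPS25, RPS19, RPS4X and RPS29, the last through RN7SL1, are within the top 1% of both lists.

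Other peaks ranked high in 1 of the lists. At least 1 peak in the top 1% of its list was present in 11 of 28 genes for RPL22 and in 9 of 28 for RPL22L1, while 4.41% and 7.18% of all protein-coding genes had one. RPS29 is among the 11 through RN7SL1 alone. RPS25 had an RPL22L1 peak at chr11:119017449-119017485, 880 bases from the start, with rank 532. RPS24 had RPL22L1 peaks with summits at bases 6804 (rank 542) and 1734 (rank 1470), and no RPL22 peak over either. RPS27A had one at base 2937 with rank 2292. In the RPL22 list, RPS19 had peaks with summits at bases 9491 (rank 764) and 8805 (rank 856), over RPL22L1 peaks of ranks 29999 and 6600. RPS15 had one at base 475 (rank 1026) and RPS28 one at base 403 (rank 990), and the RPL22L1 peaks under them ranked 83348 and 164470.

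Along the genes, 27 of 60 RPL22 summits, or 45.0% (32.1 to 58.4%), lay in the first 33.3% of the gene's length, against 31.7% over all protein-coding genes. Of the RPL22L1 summits 53 of 155 did (34.2%, 26.8 to 42.2%), against 30.1%. RPS2, RPS15A and RPS20 entered these shares from their lower coordinate, as their strand was not used. With only the 25 genes of known strand, 24 of 56 RPL22 summits lay in that part, or 42.9% (29.7 to 56.8%). This interval contains the 31.7% of all protein-coding genes, so no excess is read from the RPL22 share. For RPL22L1 it was 49 of 145 summits (33.8%, 26.2 to 42.1%). In the last 150 bases the RPL22L1 list had a summit in 7 of 25 genes, namely RPS7, RPS10, RPS19, RPS25, RPS27, RPS28 and FAU. These were 7 of 145 summits, or 4.83% (1.97 to 9.69%), against 1.06% over all protein-coding genes. That background is not matched for length: the last 150 bases make up 2.19% of these short genes and 0.224% of all protein-coding genes of known strand. In protein-coding genes no longer than RPS29 they held 3.12% of RPL22L1 summits, which lies inside the interval. There the last 150 bases make up 1.36% of the genes, so this background is not fully matched for length either. The RPS7 peak, 111 bases from the end, had rank 1423. The RPS25 peak, 33 bases from the end, had rank 1305 and lies where CENATAC overlaps the gene, and the RPS28 peak lies within KANK3. The FAU peak, 39 bases from the end, had rank 3787. The RPL22 list had a summit there in 2 genes, RPS15 and FAU, which made 2 of 56 summits (3.57%, 0.435 to 12.3%) against 0.808% in all protein-coding genes and 2.52% in those no longer than RPS29. Its FAU peak overlapped the RPL22L1 one and had rank 50119.

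**Figure D4:**
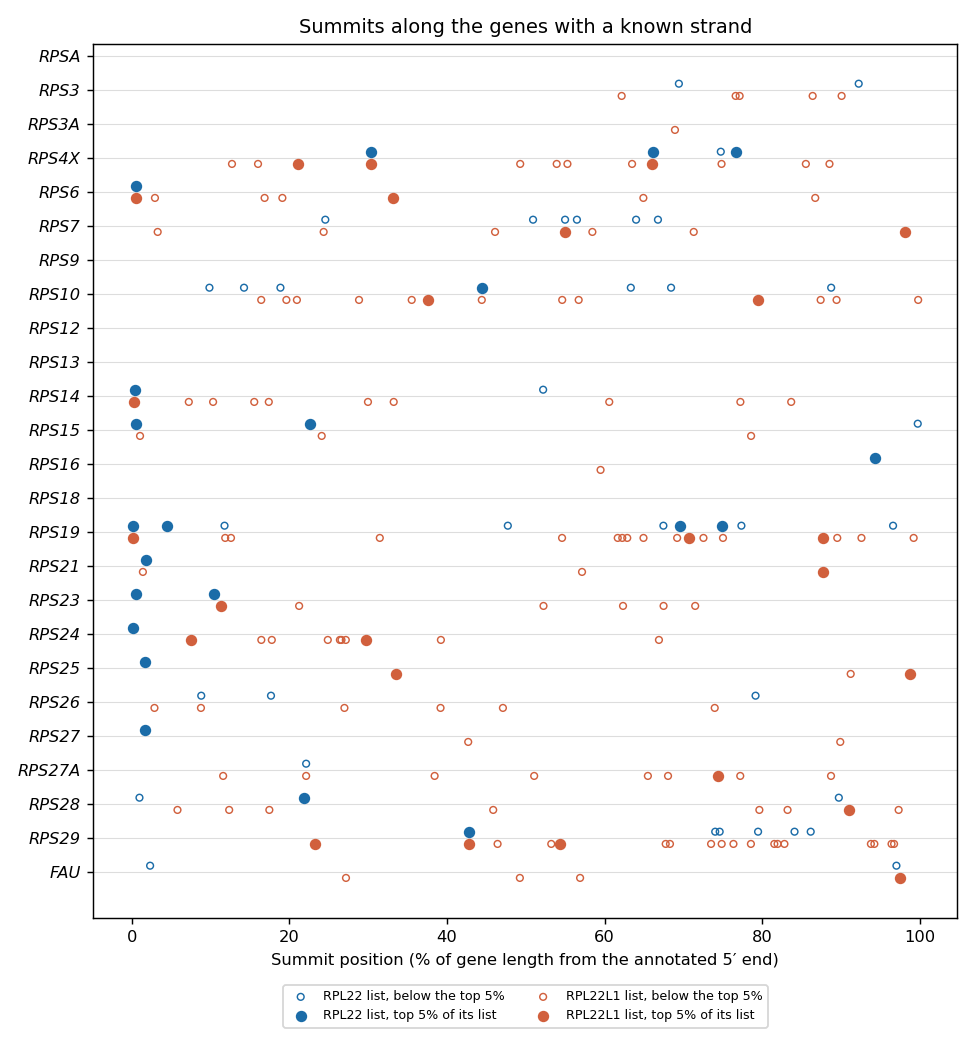
Position of each summit outside snoRNA genes along the 25 genes of known strand, in percent of gene length from the annotated 5′ end. Blue points are RPL22 and orange points RPL22L1 summits, and filled points are in the top 5% of their list; filled blue points stand at the left edge in RPS6, RPS14, RPS15, RPS19, RPS21, RPS23, RPS24, RPS25 and RPS27.

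The highest peaks within the bounds of these genes lay in their snoRNAs. The RPL22 list had 3 such summits in 2 genes and the RPL22L1 list 8 in 5. SNORA62 within RPSA, the laminin receptor protein, had overlapping peaks of ranks 78 and 100 in the RPL22 and RPL22L1 lists. SNORA64 within RPS2 had overlapping peaks of ranks 77 and 293, and SNORA10 in the same gene had an RPL22 peak only, of rank 35. SNORD101 within RPS12 had an RPL22L1 peak of rank 20 and SNORA33 one of rank 78, and neither had an RPL22 peak. SNORD15A and SNORD15B within RPS3 had RPL22L1 peaks of ranks 49 and 99, and SNORD73A within RPS3A one of rank 132. RPSA, RPS2 and RPS12 held no summit outside their snoRNAs in either list, and RPS9, RPS13 and RPS18 held none anywhere.

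Genes of related function were set beside them by counts only. Of 46 large subunit protein genes, without RPL22 and RPL22L1, 30 held an RPL22 summit and 36 an RPL22L1 summit. Of the 37 with a known strand, 7 had an RPL22 summit in the first 50 bases, or 18.9% (7.96 to 35.2%), and 6 an RPL22L1 summit, or 16.2% (6.19 to 32.0%). Their RPL22 interval overlaps that of the small subunit genes, which does not decide whether the shares differ, and a difference was not tested. A start summit in the top 1% of the RPL22 list was present in 1 of the 37 large subunit genes and in 6 of the 25 small subunit genes of known strand. In the RPL22L1 list it was 2 of 37 and 2 of 25. No interval was computed for these counts, and the share of all protein-coding genes is not given here. A difference between the 2 groups of genes was not tested. Of 20 factors of 40S assembly, such as BYSL, NOB1 and RIOK2, all 20 held a summit in both lists. These genes are longer, with a median of 21564 bases. In the first 50 bases 1 of 19 had an RPL22 summit and 0 had an RPL22L1 summit, which allows up to 17.6%.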

How the data were processed

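The lists of RPL22-HaloTag and of RPL22L1-HaloTag peaks entered the analysis, 1 per library. Per the submitters' processing notes, cutadapt 4.8, STAR 2.7.10a, UMI-tools 1.1.5 and MACS3 3.0.0a6 were used with build hg38. Roles, settings, the control and the treatment of reads with several matches are not given in the sources used here. The deposited score is the authors' whole-number score per peak, with a lowest value of 13. Columns for signal and p-value were 0 throughout, and no strand was given. Scores only ranked peaks within a list.

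Summits (start plus offset plus 1) were set against RefSeq bounds in GRCh38.p14. Strand and start sequences came from the RefSeq promoter table, which covered 25 of 28 genes. Exons were not used. Equal size kept the RPL22L1 peaks above a score of 98 and 4029 of 9182 at 98, in order of position. The genes and lists were chosen with earlier results of these data known. All 28 genes could be named; full values went to those with the best ranks, most summits, largest ratios or start summits. The last were added after the positions were seen. The ratio background was planned over all protein-coding genes. It is given first over genes with a summit in either list, a choice made after the data were seen, and then as planned. Backgrounds of genes no longer than RPS29 for positions, of strong peaks for overlap and of other pseudogenes were also added later.

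Scripts ran in Python 3.11.15 (scipy 1.17.1, pandas 2.3.3, numpy 2.4.6); figures were drawn with matplotlib 3.10.9. Code was tested on simulated data. Alternatives were the score limit, flat peaks, list size, snoRNA peaks, merging, overlap, windows, strand and starts.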

Additional observations from a re-analysis of the deposited data

How the results depend on the processing

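Of 80 alternative values for 12 results, 69 stayed within 1.5-fold or within the interval of the reported value and 11 moved. Alternatives for the start summits, the strand and other small RNA genes, 20 in all, were added after the data were seen. The requirement of at least 3 summits left 9 genes in the RPL22 list. The number of RPL22L1 summits was 85 for scores not below the median, 90 without flat peaks and 97 in a list of equal size, each by the loss of peaks. When shared bases had to cover 50% of both peaks, overlap fell to 26.7% of RPL22 and 10.3% of RPL22L1 peaks. The RPL22L1 overlap was 24.7% for scores not below the median and 24.4% without flat peaks. The first 50% of the gene in place of the first 33.3% held 44.5% of RPL22L1 summits. Whole lists in place of equal ones put 9 genes above a log2 ratio of 1, which the longer RPL22L1 list favours. A window of 25 bases left 5 genes with an RPL22 start summit, the same number as in the RPL22L1 list, while 100 bases gave 11 and 6. Without flat peaks the start numbers were 10 and 4. Where a setting does not itself remove peaks, the cause was not tested. No paired analysis was possible because each genotype has 1 library. The intervals reflect only the numbers of genes, summits or peaks printed, and the read depth behind the lists is unknown.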

Other observations

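The gene table held 656 pseudogenes named after the 28 genes, with a median length of 523.5 bases, of which 73 (11.1%, 8.82 to 13.8%) had an RPL22 summit and 81 (12.3%, 9.93 to 15.1%) an RPL22L1 summit. Not all can be plain copies of a messenger RNA, since 11 were longer than 2000 bases and RPSAP52 spanned 68955. Among the 645 of up to 2000 bases, a limit set after the lengths were seen, 10.7% (8.42 to 13.3%) had an RPL22 summit and 11.9% (9.54 to 14.7%) an RPL22L1 summit. Among 13262 other pseudogenes of up to 2000 bases the shares were 7.25% and 8.51%. Many of the peaks in pseudogenes named after these genes lay within another gene as well, such as RPS3P2 in RALGAPB and RPS10P19 in AMBRA1. Without strand, peaks of a pseudogene and of the gene around it cannot be told apart. RPSA had 74 pseudogenes named after it, RPS26 had 59, RPS2 had 55 and RPS3A had 54, while RPS9 and FAU had 4 each. Across the 28 genes the number of pseudogenes and the number of summits in the gene had a Spearman correlation of -0.14 for RPL22 and -0.03 for RPL22L1, a description over genes that share a library and reads. The summit numbers of the 2 lists had one of 0.84. Of the 87 RPL22 and 107 RPL22L1 peaks in the 656 pseudogenes, 1 and 2 were in the top 1% of their list, about the share that the ranking itself gives. In all other pseudogenes 3.60% and 3.03% of peaks were. RPS4XP22, a pseudogene of RPS4X of 858 bases, held such a peak in both lists. Its peaks at chr19:9683562-9683612 in the RPL22 list (rank 429) and chr19:9683566-9683622 in the RPL22L1 list (rank 355) overlapped and ranked above every peak of RPS4X itself. RPS27P3, within TSPAN9, had an RPL22L1 peak of rank 951, ahead of both RPS27 peaks of that list, and no RPL22 peak over it. How reads were shared between a gene and its pseudogenes is not given in the sources used here.

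Both lists also used alternate sequences of the assembly, which carry further copies of regions on the chromosomes, and held 57 and 79 peaks on them. Of these, 23 and 18 were on alternate sequences of chromosome 6, the chromosome of RPS18, and 2 and 0 on those of chromosome 19, the chromosome of RPS9. Genes on the alternate sequences were not placed here.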
